A study of Danio rerio with 53 samples.

Results

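Thymic B cells were compared with the marrow population labelled B Stage I in zebrafish that carry a pair of fluorescent reporters. The comparison used 12 of the 53 sequenced libraries, chosen by their labels: 6 libraries of the thymus population T4, called Thymic B, and 6 of the marrow population M3A, called B Stage I. Both populations were sorted by flow cytometry from 2 transgenic lines. In each line a red reporter is driven by the rag2 promoter, which is active in lymphocytes that rearrange their antigen receptor genes, and a green reporter by the promoter of cd79b (rag2RFP-cd79bGFP line) or cd79a (rag2RFP-cd79aGFP line), the paired signalling chains of the B cell receptor. The cd79b line gave Thymic B replicates 4, 5 and 6 and B Stage I replicates 10, 11 and 12. The cd79a line gave Thymic B replicates 33, 34 and 35 and B Stage I replicates 39, 40 and 41. No treatment is recorded in the labels, and age and sex were not given in the sources used here. Organs were dissected and dissociated, cells were taken from lymphoid and precursor scatter gates, and RNA from the sorted cells was read at its 3′ end with QuantSeq. Nothing in the labels says whether the replicates came from separate fish, so p-values measure the spread between these libraries, which may be technical. In both populations the sort rested on transgenes, so a gate holds whichever cells had that colour and size, and in bulk RNA fewer cells of a type and less RNA per cell cannot be told apart.

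B cells of most vertebrates begin as progenitors that rearrange immunoglobulin heavy and light chain genes with the RAG recombinase and divide between these steps. The thymus is the organ of T cell development, yet it also holds a small resident population of B cells, which in mammals display self-antigens on major histocompatibility complex (MHC) class II to developing T cells. MHC class II molecules are assembled on the invariant chain, CD74, before they are loaded with peptide. In fish the marrow lies between the tubules of the kidney, so dissected marrow adjoins renal epithelium. Symbols are spelled as in the reference table of gene names, where many zebrafish genes carry capital letters.

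The libraries of the populations differed in what they detected. Totals were 7756073 to 10144626 counts in Thymic B (median 8897771) and 12011534 to 15429662 in B Stage I (median 12837148). A count was seen for 3803 to 6739 genes in Thymic B and for 8892 to 10562 genes in B Stage I, with no overlap. After every library was thinned to 7756073 counts, the ranges were 3803 to 6698 genes in Thymic B and 8790 to 10467 in B Stage I, so the gap remained at equal depth. Thymic B replicates 4, 5 and 6 had 3803, 5156 and 5941 genes, and replicates 33, 34 and 35 had 5884, 6680 and 6739. The nuclear RNA malat1 took 2.47 to 4.03% of counts in Thymic B and 0.586 to 2.1% in B Stage I. What this difference in detected genes contributes to the lower values in Thymic B was not tested. Replicates of the same population and line differed well beyond counting noise (chi-square per degree of freedom 124 to 500 over 12 pairs). The 3-count floor of a library was 0.296 to 0.387 CPM (counts per 1000000) in Thymic B and 0.194 to 0.25 CPM in B Stage I. Floors and counting intervals cover counting error only.

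Markers placed both populations in the B lineage. The summed level of the B lineage markers, a list that includes cd79a, cd74a, PAX5, EBF1, blnk and SYK, was 11934 to 28154 CPM in Thymic B and 7802 to 12669 CPM in B Stage I. Of its 13 tested members, 1 (cd74a) passed the test and was higher in Thymic B (7.69%, against 0.797% of all tested genes). None was lower (against 6.59%). In all, 4 fitted fold changes were positive and 9 negative, with a median log2 fold change of -0.04. Over all tested genes 2891 were positive and 7525 negative, with a median of -1.19. The sum averaged 18653 CPM in Thymic B and 9939 CPM in B Stage I, of which cd74a alone was 8883 and 2219 CPM. cd74a is not confined to B cells here, since it averaged 2192 CPM in Early T-committed cells. By contrast cd79a averaged 593 CPM in Thymic B, 314 CPM in B Stage I and at most 2.94 CPM in the T cell populations. The T lineage markers summed to 177 to 852 CPM in Thymic B and 38.1 to 170 CPM in B Stage I, and all 8 tested members had a positive fitted fold change. Most of that sum in Thymic B was the chemokine receptor CCR9 (ENSDARG00000055186), described below. il7r and TCF7 had no count in any of the 12 libraries. lck, the T cell kinase, had 23.9 and 12.8 CPM in Thymic B replicates 6 and 33, 0 CPM in the other Thymic B libraries and at most 0.0782 CPM in B Stage I.

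The reporter transcript and the reporter genes were measured in every library. The transcript gfp, which has its own row in the count table and entered no test, had 713, 477 and 56.4 CPM in Thymic B and 541, 566 and 497 CPM in B Stage I of the cd79b line. In the cd79a line it had 5773, 2365 and 4267 CPM in Thymic B and 995, 1162 and 795 CPM in B Stage I. Endogenous cd79a had 197 to 805 CPM in Thymic B (median 598) and 199 to 453 CPM in B Stage I (median 306), and its difference did not pass the test (log2 fold change 0.78 ± 0.345 SE, edgeR adjusted p = 0.152). For cd79b the ranges were 0 to 98.5 CPM in Thymic B and 14.9 to 53.2 CPM in B Stage I (log2 fold change -0.31 ± 1.32 SE, edgeR adjusted p = 0.946). RAG2 was at 84.6, 6.24, 0, 0, 56.6 and 10.9 CPM in Thymic B and at 164, 239, 181, 74.8, 210 and 94.6 CPM in B Stage I. Within each line every Thymic B library lay below every B Stage I library for RAG2, but the fitted difference did not pass (log2 fold change -2.70 ± 1.4 SE, edgeR adjusted p = 0.319).

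Of 10416 genes tested with line as a covariate, 83 (0.797%) were higher in Thymic B and 686 (6.59%) were lower, 7.38% in all, at an edgeR quasi-likelihood Benjamini-Hochberg adjusted p under 0.05. Among the genes that were lower, 526 had no count in any Thymic B library, and 128 had more than 3 counts there. Those 526 met the count filter through B Stage I alone. Of all tested genes, 1322 had no count in Thymic B and 29 had none in B Stage I. The share of lower calls and the median fold change of all tested genes therefore rest in part on the filter. Among those that were higher, 20 had no count in any B Stage I library. Of the 4287 genes with a mean of at least 20 CPM over the 12 libraries, 62 were higher and 164 lower in Thymic B. The median log2 fold change was -1.19 over all tested genes and -0.31 over those at 20 CPM or more. Complete separation of the libraries within both lines, 3 against 3, was found for 73 genes (0.701%) that were higher and 781 (7.5%) that were lower in Thymic B.

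These counts rested on single libraries, although no gene called in both the full fit and a refit changed direction. Higher and lower calls numbered 51 and 212 without Thymic B replicate 5, 46 and 257 without replicate 33 and 46 and 278 without replicate 35. Without B Stage I replicate 11 they were 46 and 298, without 12 they were 47 and 200, without 39 they were 50 and 385, without 40 they were 49 and 301 and without 41 they were 45 and 249. Leaving out B Stage I replicate 10 gave 43 higher genes, while leaving out Thymic B replicates 4 or 6 gave 244 or 311 lower genes. Without B Stage I replicates 40 and 41, which held the most kidney tubule transcripts, 41 genes were higher and 138 lower. Without Thymic B replicates 4 and 5, which had the fewest detected genes, 50 were higher and 179 lower. Within a line alone, with 3 libraries against 3, 13 genes were higher and 47 lower in the cd79b line and 22 and 47 in the cd79a line. Of the 63 genes named by rule that passed the test, 37 passed in all 12 fits without 1 library.

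**Figure D1:**
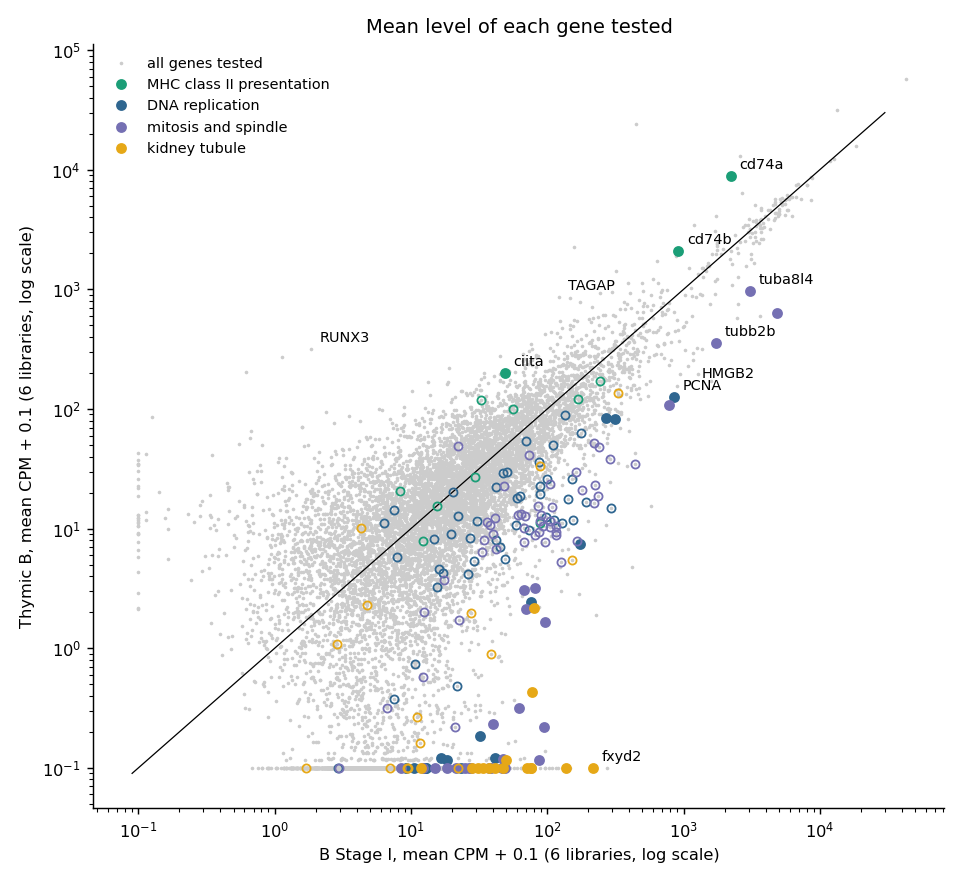
Mean level of each tested gene in Thymic B (vertical axis) against B Stage I (horizontal axis), in CPM plus 0.1 on log axes, with 6 libraries in each mean. Coloured points are members of the MHC class II, DNA replication, mitosis and kidney tubule lists, filled where the edgeR test called them and open where it did not. The called MHC class II genes lie above the diagonal and all called members of the other 3 lists lie below it.

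Invariant chain transcripts were higher in thymic B cells. Of 12 tested genes of MHC class II presentation, 3 (25.0%, against 0.797% of all tested genes) were higher in Thymic B and none was lower. The median log2 fold change over the list was 0.17, and 6 of 12 values were positive, against 2891 of 10416 over all tested genes. The invariant chain gene cd74a had 8580, 8760, 12500, 9130, 6380 and 7990 CPM in Thymic B and 1990, 2200, 2490, 1800, 3290 and 1560 CPM in B Stage I. The lowest Thymic B library was above the highest B Stage I library (8883 ± 2005 CPM in Thymic B and 2219 ± 614 CPM in B Stage I, SD, n = 6 each, log2 fold change 1.88 ± 0.19 SE, edgeR adjusted p = 1.47e-08). Its duplicate cd74b had 1080 to 2830 CPM in Thymic B (median 2140) and 713 to 1260 CPM in B Stage I (median 881). For cd74b the libraries separated within each line but Thymic B replicate 4, at 1080 CPM, lay below B Stage I replicate 40 of the other line, at 1260 CPM (log2 fold change 1.08 ± 0.242 SE, edgeR adjusted p = 0.00724).

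The transcriptional activator of MHC class II genes, ciita, had 86 to 357 CPM in Thymic B (median 183) and 20.6 to 88.8 CPM in B Stage I (median 44), and the groups overlapped at 1 library. It passed narrowly (log2 fold change 1.84 ± 0.587 SE, edgeR adjusted p = 0.0483) and missed the threshold in 10 of the 12 fits without 1 library (adjusted p up to 0.0917). It passed only without Thymic B replicate 5 or B Stage I replicate 40. The summed list, led by cd74a, was 9064 to 15245 CPM in Thymic B and 3275 to 5220 CPM in B Stage I. It did not overlap between the populations. Its mean was 11762 CPM in Thymic B and 3832 CPM in B Stage I. Of these means, cd74a was 8883 and 2219 CPM and cd74b was 2086 and 909 CPM. The sum therefore mostly restates the values of cd74a and cd74b and says little of the other members.

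**Figure D2:**
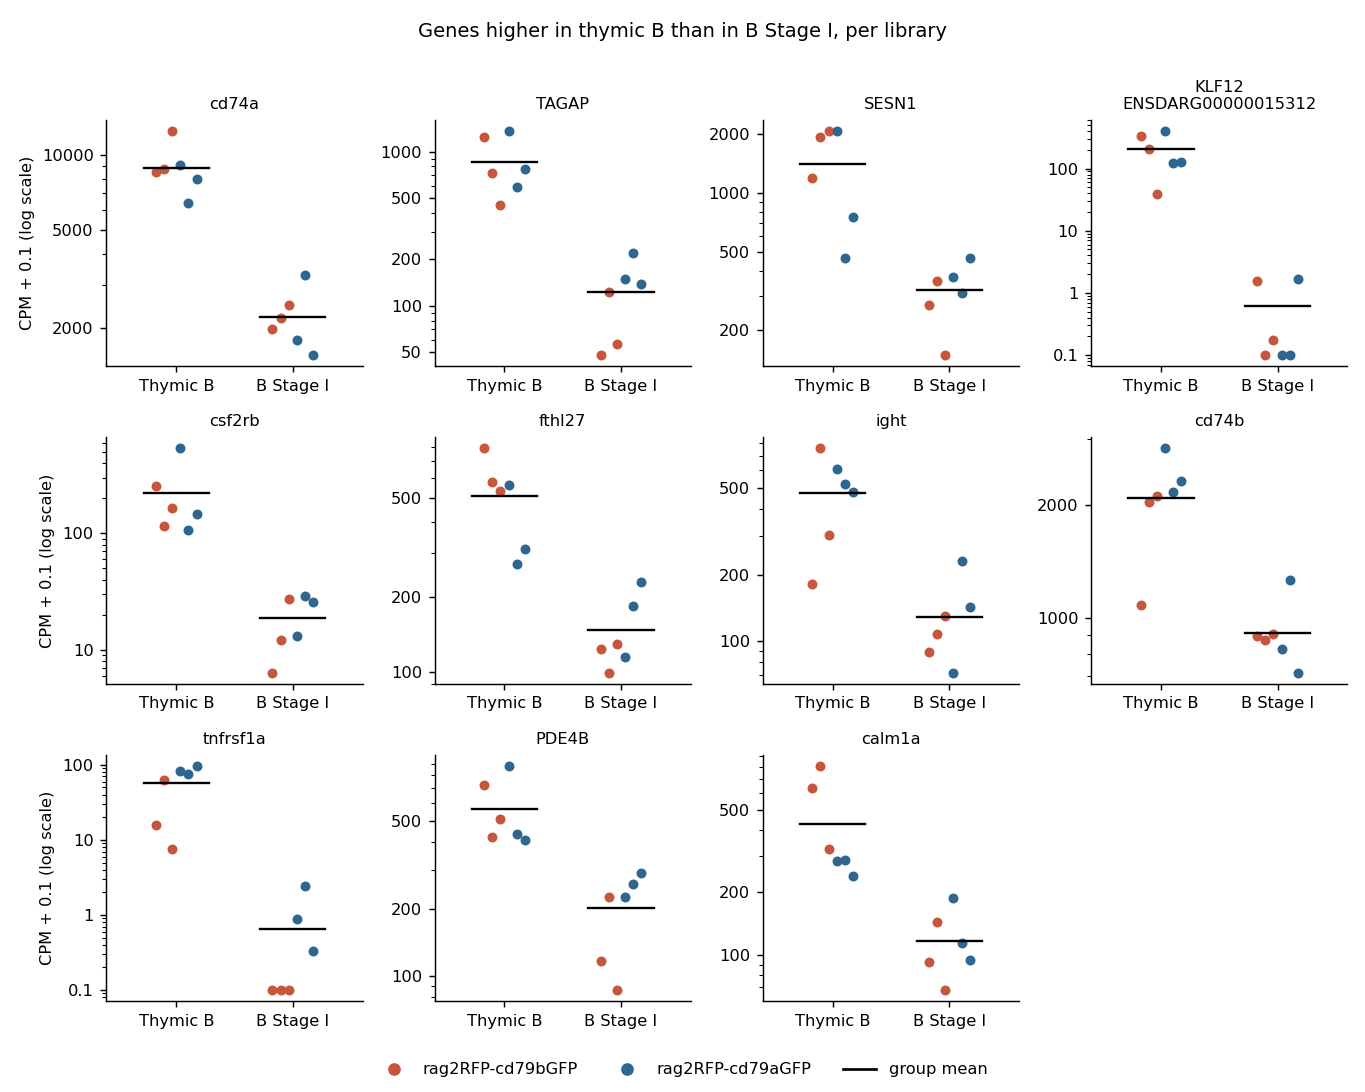
Level of 11 genes that were higher in Thymic B, in CPM plus 0.1 on log axes, with 1 point for each library, coloured by line, and a bar at the mean of each population. Thymic B points (left) lie above B Stage I points (right) of the same line in every panel because the naming rule required it. Of the 83 genes called higher, 36 separated in this way. cd74a sits at 6380 to 12500 CPM in Thymic B and 1560 to 3290 CPM in B Stage I.

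Further genes higher in Thymic B were named by p, among called genes that separated within both lines, and not from a gene list. Of the 83 higher calls, 36 separated in this way. TAGAP, a GTPase-activating protein named for its induction in activated human T cells, had 1240, 726, 449, 1360, 591 and 766 CPM in Thymic B and 47.6, 123, 56.5, 148, 220 and 139 CPM in B Stage I. No library overlapped, and the mean was 856 ± 365 CPM in Thymic B and 122 ± 63.8 CPM in B Stage I (SD, n = 6 each, log2 fold change 2.79 ± 0.354 SE, edgeR adjusted p = 1.81e-06). cd74a and TAGAP were the higher genes named by rule that passed in each line alone and in every other alternative.

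SESN1, a sestrin that restrains growth signalling through mTORC1 in mammals, had 1190, 1930, 2070, 2060, 467 and 755 CPM in Thymic B and 267, 357, 149, 375, 310 and 465 CPM in B Stage I. Thymic B replicate 34, at 467 CPM, was just above the highest B Stage I library (log2 fold change 2.03 ± 0.322 SE, edgeR adjusted p = 9.76e-05). The zinc finger repressor KLF12 (ENSDARG00000015312) had 38.1 to 401 CPM in Thymic B (median 165) and 0 to 1.57 CPM in B Stage I, where 3 of 6 libraries had no count (log2 fold change 8.53 ± 1.33 SE, edgeR adjusted p = 0.000617). csf2rb, the beta chain that receptors for IL-3, IL-5 and GM-CSF share in mammals, had 106 to 536 CPM in Thymic B (median 156) and 6.29 to 28.9 CPM in B Stage I (median 19.4), with no overlap (log2 fold change 3.36 ± 0.647 SE, edgeR adjusted p = 0.00151). The csf2rb call was lost when all 53 libraries were fitted together.

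The type 1 tumour necrosis factor receptor tnfrsf1a had 15.6, 62.1, 7.38, 83.2, 76 and 96.8 CPM in Thymic B, against 0 in all 3 B Stage I libraries of the cd79b line and 0.782, 2.31 and 0.235 CPM in those of the cd79a line. It was near the floor in B Stage I and present in every Thymic B library (log2 fold change 8.04 ± 1.89 SE, edgeR adjusted p = 0.0108). PDE4B, a cyclic AMP phosphodiesterase, had 407 to 882 CPM in Thymic B and 86.2 to 291 CPM in B Stage I (log2 fold change 1.44, edgeR adjusted p = 0.011). The PDE4B call was lost when all 53 libraries were fitted together. A calmodulin gene, calm1a, had 239 to 810 CPM in Thymic B and 67.9 to 189 CPM in B Stage I (log2 fold change 1.68, edgeR adjusted p = 0.013), and its call was lost without Thymic B replicates 4 and 5. The ferritin heavy chain gene fthl27 had 271 to 789 CPM in Thymic B and 99.6 to 230 CPM in B Stage I (log2 fold change 1.65, edgeR adjusted p = 0.00589). None of these 3 overlapped between the populations.

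A pair of genes known only by clone names were far more abundant in Thymic B; they fell outside the naming rule and were chosen after their values were seen. si:dkey-238c7.13 had 18800, 22400, 6200, 16500, 51500 and 29500 CPM in Thymic B and 378, 152, 410, 470, 765 and 528 CPM in B Stage I (log2 fold change 5.63 ± 0.521 SE, edgeR adjusted p = 0.000349). si:dkey-238c7.12 had 13800, 13000, 6610, 12100, 19300 and 14000 CPM in Thymic B and 2540, 2360, 2750, 2140, 3270 and 2480 CPM in B Stage I (log2 fold change 2.23 ± 0.2 SE, edgeR adjusted p = 1.47e-08). Neither overlapped between the populations, and the gene table gives no function for either.

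Many genes of DNA replication and cell division were lower in thymic B cells. Among DNA replication genes 15 of 59 tested, from 60 in the table (25.4%, against 6.59% of all tested genes) were lower in Thymic B and none was higher. In all 58 had a negative fitted fold change, and the median log2 fold change was -4.76, or -4.71 with the 7 genes that had no Thymic B count set at their bound. Among genes of mitosis and the spindle 25 of 72 tested, from 74 in the table (34.7%), were lower and none higher. In all 71 were negative, and the median was -5.57, or -5.38 with 13 genes at their bound. Over all tested genes the median was -1.19, and 7525 of 10416 fitted fold changes were negative. Restricted to genes with a mean of at least 20 CPM, 6 of 34 replication genes and 14 of 53 mitosis genes were lower, with medians of -3.58 and -4.84. Over all 4287 such genes 164 were lower, and the median was -0.31. The replication list summed to 452 to 1800 CPM in Thymic B and 3936 to 5532 CPM in B Stage I. The mitosis list summed to 1174 to 5031 CPM in Thymic B and 13161 to 21748 CPM in B Stage I. The populations did not overlap in either sum. The mitosis sum averaged 2774 CPM in Thymic B, with 961 CPM from the tubulin gene tuba8l4 and 356 CPM from the tubulin gene tubb2b. In B Stage I it averaged 16101 CPM, with 3063 and 1727 CPM from these tubulin genes. The genes without a Thymic B count passed the count filter through B Stage I alone, while the sums hold every member in the table.

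The count of replication genes that were lower moved with single libraries: it was 8 without Thymic B replicate 4, 7 without 5, 6 without 33 and 7 without 35, and 5 without B Stage I replicate 12, 7 without 40 and 8 without 41. It was 9 without B Stage I replicates 40 and 41 together and 5 without Thymic B replicates 4 and 5. The count of mitosis genes stayed between 17 and 36 in the 12 fits without 1 library, and was 23 without B Stage I replicates 40 and 41 and 16 without Thymic B replicates 4 and 5. The list medians moved as well: without B Stage I replicates 40 and 41 they were -5.63 for replication and -9.38 for mitosis, and without Thymic B replicates 4 and 5 they were -2.69 and -3.31.

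**Figure D3:**
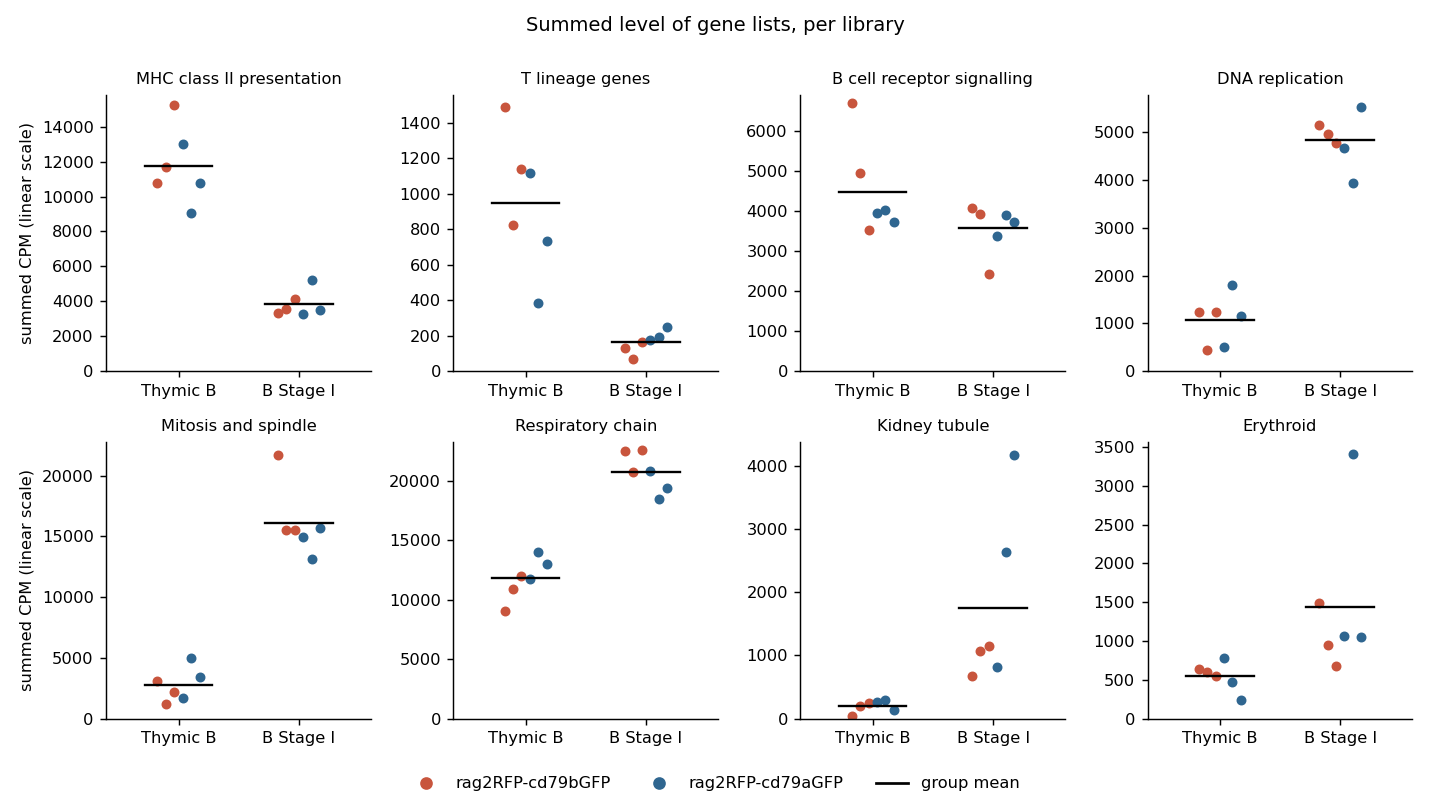
Summed CPM of 8 gene lists on linear axes from 0, with 1 point for each library, coloured by line, a bar at the mean, and Thymic B on the left and B Stage I on the right of each panel. The mitosis sum is 1174 to 5031 CPM in Thymic B and 13161 to 21748 CPM in B Stage I. The MHC class II sum is 9064 to 15245 CPM in Thymic B and 3275 to 5220 CPM in B Stage I. Most of it is cd74a and cd74b.

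PCNA, the sliding clamp of the replication fork, had 107, 25.7, 153, 72.8, 248 and 148 CPM in Thymic B and 879, 920, 741, 883, 548 and 1140 CPM in B Stage I. Every B Stage I library was above every Thymic B library (log2 fold change -2.87 ± 0.395 SE, edgeR adjusted p = 8.42e-06). DNA ligase 1, LIG1, had 6.99 to 234 CPM in Thymic B (median 62.4) and 187 to 469 CPM in B Stage I (median 282). Thymic B replicate 4, at 234 CPM, was above B Stage I replicate 40, at 187 CPM, of the other line (log2 fold change -2.33 ± 0.493 SE, edgeR adjusted p = 0.00418). GINS2, a subunit of the replicative helicase complex, had no count in Thymic B and 9.09 to 41 CPM in B Stage I, which is at least 67.9-fold lower against the mean 3-count floor of the Thymic B libraries (adjusted p = 0.0158, edgeR). cdca7b, whose mammalian relative is a cell cycle gene, had 0.129 CPM in Thymic B replicate 4, none in the other 5, and 16.4 to 75.8 CPM in B Stage I. From the pooled counts the ratio of B Stage I to Thymic B was 2230, with a 95% counting interval of 399 to 87900 (edgeR adjusted p = 0.00362).

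Among genes of mitosis, the beta tubulin tubb2b had 528, 269, 130, 351, 441 and 420 CPM in Thymic B and 2400, 1460, 1500, 1750, 1610 and 1630 CPM in B Stage I (log2 fold change -2.39 ± 0.288 SE, edgeR adjusted p = 7.62e-07). The alpha tubulin tuba8l4 had 354 to 1290 CPM in Thymic B (median 1020) and 2370 to 3790 CPM in B Stage I (median 2910), again with no overlap (log2 fold change -1.75 ± 0.24 SE, edgeR adjusted p = 7.3e-06). ESCO2, which acetylates cohesin during S phase, had 0.101 CPM in Thymic B replicate 34, none in the other Thymic B libraries, and 33.4 to 136 CPM in B Stage I. The pooled count ratio of B Stage I to Thymic B was 4620, with an interval of 829 to 183000 (edgeR adjusted p = 2.25e-05). TTK, a kinase of the spindle checkpoint, was seen in 1 Thymic B library (replicate 34, 0.709 CPM) and had 52.4 to 171 CPM in B Stage I (edgeR adjusted p = 0.000206). The proliferation markers mki67 and TOP2A had negative fitted values that did not pass (log2 fold change -3.80 and -3.03, edgeR adjusted p = 0.0815 and 0.113).

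Of the lower genes with the smallest p, 3 encode high mobility group proteins of chromatin. They were named by p, among called genes that separated within both lines, and not from a gene list. The genes hmgb1a (log2 fold change 0.10) and hmgb1b (-1.49) of the same family did not pass (edgeR adjusted p = 0.924 and 0.125). hmgn1b, a nucleosome-binding member, had 585, 682, 529, 423, 745 and 464 CPM in Thymic B and 3490, 2530, 3190, 2340, 1520 and 1680 CPM in B Stage I (log2 fold change -2.15 ± 0.25 SE, edgeR adjusted p = 4.34e-07). The AT-hook protein gene hmga1a had 444 to 886 CPM in Thymic B (median 793) and 1780 to 3320 CPM in B Stage I (median 2330). The DNA-bending HMGB2 had 161 to 356 CPM in Thymic B (median 243) and 759 to 1480 CPM in B Stage I (median 1120). All 3 separated completely, with log2 fold changes of -1.82 ± 0.23 SE for hmga1a and -2.25 ± 0.302 SE for HMGB2 (edgeR adjusted p = 1.81e-06 and 5.35e-06). krcp had 1 Thymic B library with counts (replicate 6, 0.23 CPM) and 51.6 to 166 CPM in B Stage I, and its pooled count ratio of B Stage I to Thymic B was 2600, with an interval of 721 to 21500 (edgeR adjusted p = 1.01e-05). tubb2b, hmga1a, HMGB2, krcp and ESCO2 passed in all fits without 1 library and in every other alternative, each line alone included.

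**Figure D4:**
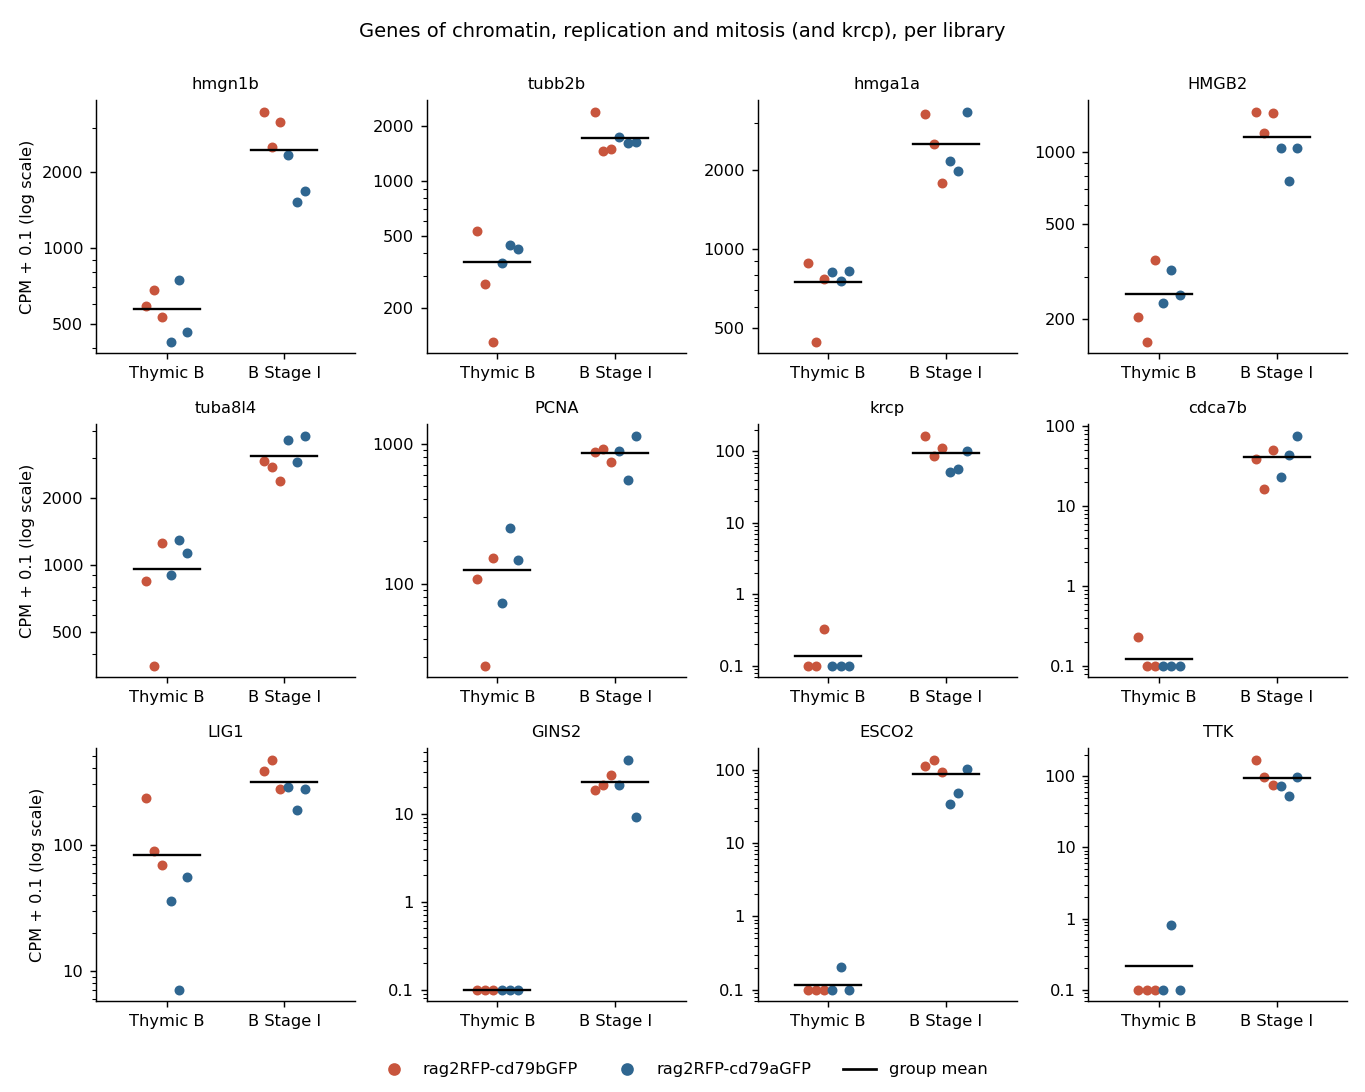
Level of 12 genes (replication, mitosis, chromatin and krcp) that were lower in Thymic B, in CPM plus 0.1 on log axes, with undetected values at the bottom and 1 point for each library, coloured by line. Thymic B points (left) lie below the B Stage I points (right) of the same line in every panel. The naming rule required this of the genes named by p. PCNA sits at 25.7 to 248 CPM in Thymic B and 548 to 1140 CPM in B Stage I.

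Few genes that define the B cell passed the test, as did few of all tested genes (0.797% higher and 6.59% lower). No gene of B cell receptor signalling passed in either direction among 20 tested, and the list median was 0.28, with blnk at a log2 fold change of 0.36, SYK at -0.12 and VAV2 at 1.71 (edgeR adjusted p = 0.629, 0.884 and 0.0531). Among B lineage regulators, whose list median was -0.14 (0.08 with median-ratio size factors), 1 of 29 passed and was lower (3.45%, against 6.59% of all tested genes). FOXO1 (ENSDARG00000061549), a transcription factor of early B cells in mammals, had no count in Thymic B and 0.778 to 15.6 CPM in B Stage I, which is at least 16.7-fold lower (adjusted p = 0.0483, edgeR), or 10.9-fold without B Stage I replicate 39. This FOXO1 gene met the count filter through B Stage I alone. Its call did not survive the omission of any 1 of the 12 libraries (edgeR adjusted p up to 0.0863). Another FOXO1 gene on the list (ENSDARG00000099555) was tested and did not pass. PAX5 and EBF1, factors that set B cell identity, had log2 fold changes of -0.87 and -0.52 that did not pass (edgeR adjusted p = 0.21 and 0.667).

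Among 15 tested immunoglobulin genes on the list, 1 was higher (6.67%, against 0.797% of all tested genes) and 1 lower (6.67%, against 6.59%). The light chain constant gene igl1c3 had 476 to 1100 CPM in Thymic B (median 796) and 205 to 504 CPM in B Stage I (median 398), a log2 fold change of 1.01 ± 0.287 SE (edgeR adjusted p = 0.0348). Its call was lost without B Stage I replicate 10, 11, 39, 40 or 41 or Thymic B replicate 35 (adjusted p up to 0.0695). The heavy chain variable gene ighv5-7 had no count in Thymic B and 0.259 to 33.1 CPM in B Stage I, which is at least 24.2-fold lower (adjusted p = 0.0455, edgeR), or 9.48-fold without B Stage I replicate 12. The gene met the count filter through B Stage I alone. It passed in only 1 of the fits without 1 library, that without B Stage I replicate 10. ight, the heavy chain gene of the teleost antibody class IgT, was not on the list. It was named by its p among called genes that separated within both lines. It had 181, 754, 303, 606, 519 and 476 CPM in Thymic B and 89.2, 107, 130, 71.5, 230 and 143 CPM in B Stage I (log2 fold change 1.79 ± 0.393 SE, edgeR adjusted p = 0.00621). The ight call was lost when all 53 libraries were fitted together. The IgD heavy chain gene ighd had a log2 fold change of 0.02 (edgeR adjusted p = 0.996).

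Among genes of antigen receptor rearrangement xrcc4 alone passed. Of 14 tested genes of V(D)J recombination and end joining, 1 (7.14%) was lower, near the 6.59% of all tested genes, and none was higher. At a mean of 20 CPM or more, the median of the 6 such genes was -0.73, against -0.31 over all such genes. The end-joining factor xrcc4 had no count in Thymic B and 8.84 to 24.4 CPM in B Stage I, which is at least 40-fold lower (adjusted p = 0.0303, edgeR). With no Thymic B count, xrcc4 met the count filter through B Stage I alone. The xrcc4 call was lost without Thymic B replicate 4 or 5 or B Stage I replicate 12 (edgeR adjusted p up to 0.0598). RAG1 had 0 to 105 CPM in Thymic B (median 29.5) and 17.2 to 70 CPM in B Stage I (median 37.8), overlapping throughout (log2 fold change -0.14, edgeR adjusted p = 0.98). dntt, the terminal transferase that adds bases at the joints, had no count in any of the 12 libraries.

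Of the genes associated with T cells 2 passed the test. Of 14 tested T lineage genes, from 29 in the table, CCR9 (ENSDARG00000055186) and RUNX3 were higher in Thymic B (14.3%, against 0.797% of all tested genes) and none was lower (against 6.59%). In all 13 were positive, against 2891 of 10416 over all tested genes, and the median log2 fold change was 1.9. CCR9, a receptor for the thymic chemokine CCL25, had 689, 201, 178, 575, 136 and 321 CPM in Thymic B and 22.6, 34.6, 45.9, 110, 108 and 137 CPM in B Stage I. The populations overlapped at Thymic B replicate 34 and B Stage I replicate 41 (log2 fold change 2.29 ± 0.491 SE, edgeR adjusted p = 0.00484). The CCR9 call was lost when all 53 libraries were fitted together. Another CCR9 gene on the list (ENSDARG00000099738) was tested and did not pass. RUNX3, a transcription factor of cytotoxic T cells and other leukocytes in mammals, had 437, 344, 480, 323, 67.3 and 257 CPM in Thymic B and 0, 0, 0.0776, 0, 6.79 and 3.6 CPM in B Stage I. Thymic B libraries were all above B Stage I libraries by a wide margin (318 ± 147 CPM in Thymic B and 1.75 ± 2.86 CPM in B Stage I, SD, n = 6 each, log2 fold change 8.85 ± 2.04 SE, edgeR adjusted p = 0.0391). The RUNX3 call was lost without Thymic B replicate 4 or 5 or B Stage I replicate 10, 11, 12 or 41 (adjusted p up to 0.0671).

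Genes of the T cell receptor, its kinase and its coreceptors had at most 26.2 CPM in Thymic B. trbc1 had no count there, cd4-1 at most 9.27 CPM, ZAP70 at most 5.12 CPM, cd8a at most 13.9 CPM and cd8b at most 26.2 CPM. For scale, the B cell gene cd79b had a median of 28.3 CPM in Thymic B. The T lineage list summed to 385 to 1487 CPM in Thymic B and 69.3 to 250 CPM in B Stage I, and RUNX3 and CCR9 made up most of it in Thymic B. Whether T lineage cells in the sort contribute to the values of CCR9 and RUNX3 was not tested. mbpa, a myelin basic protein gene, had 91.4, 159, 265, 185, 416 and 517 CPM in Thymic B and was at 0 in 4 B Stage I libraries, with 6.08 and 0.155 CPM in replicates 11 and 12. Its log2 fold change was 9.29 ± 2.34 SE (edgeR adjusted p = 0.0469), and the call remained only in the fits without B Stage I replicate 11 or Thymic B replicate 34 or 35 (adjusted p up to 0.0711 in the others).

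The few called genes of activation, cytokine reception and survival were mostly higher in Thymic B. In the activation and NF-kB list 1 of 40 genes was higher (2.5%, against 0.797% of all tested genes) and none lower, with a median log2 fold change of 0.70. nfkbiab, which encodes the NF-kB inhibitor IkB alpha and is itself induced by NF-kB, had 671 to 1630 CPM in Thymic B (median 1110) and 299 to 733 CPM in B Stage I (median 454). The groups overlapped at Thymic B replicate 34 (log2 fold change 1.13 ± 0.281 SE, edgeR adjusted p = 0.0164). Without Thymic B replicate 35 its adjusted p was 0.0589 and no gene of the list passed. Without Thymic B replicate 34, 4 genes passed. The immediate early genes FOS and DUSP1 had log2 fold changes of 2.04 and 2.29 that did not pass (edgeR adjusted p = 0.433 and 0.0826). The list summed to 5712 to 21937 CPM in Thymic B and 2846 to 12275 CPM in B Stage I. Within the cd79a line the sums overlapped, at 14722, 5712 and 8118 CPM in Thymic B and 7063, 12275 and 9679 CPM in B Stage I. Within the cd79b line they did not, at 21937, 6434 and 10782 CPM in Thymic B and 3523, 4310 and 2846 CPM in B Stage I.

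Among 31 cytokine receptor and JAK-STAT genes, csf2rb, tnfrsf1a and stat2 were higher (9.68%, against 0.797% of all tested genes) and SOCS3 (ENSDARG00000026611) was lower (3.23%, against 6.59%). stat2, a mediator of interferon signalling, had 138 to 557 CPM in Thymic B (median 200) and 27.4 to 143 CPM in B Stage I (median 72.5). Its log2 fold change of 1.61 ± 0.489 SE (edgeR adjusted p = 0.0433) passed only without Thymic B replicate 4 or B Stage I replicate 39 (adjusted p up to 0.094 in the others). SOCS3, a feedback inhibitor of cytokine receptors, had no count in Thymic B and 4.73 to 63.4 CPM in B Stage I, which is at least 47.9-fold lower (adjusted p = 0.0299, edgeR), or 20.1-fold without B Stage I replicate 39. SOCS3 thus met the count filter through B Stage I alone. The SOCS3 call was lost without Thymic B replicate 5, 33 or 35 or B Stage I replicate 39 (edgeR adjusted p up to 0.0543). SESN1 and tnfrsf1a were the genes that passed among 31 of survival and cell death, both higher (6.45%). That list summed to 2803 to 5594 CPM in Thymic B and 1887 to 2755 CPM in B Stage I, with no overlap. The sum averaged 4344 CPM in Thymic B and 2344 CPM in B Stage I, of which SESN1 alone was 1413 and 321 CPM. Of 25 adhesion and migration genes CCR9 and rgs18 were higher (8.0%). rgs18, a regulator of G protein signalling that is also on the thrombocyte list, had 315 to 1040 CPM in Thymic B and 169 to 302 CPM in B Stage I with no overlap (log2 fold change 1.1 ± 0.326 SE, edgeR adjusted p = 0.04). It missed the threshold without Thymic B replicate 6 or 35 or B Stage I replicate 10, 11, 12, 40 or 41 (adjusted p up to 0.0703).

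The summed level of respiratory chain genes was lower in Thymic B, while few single genes passed the test. Of 90 tested genes 6 were lower (6.67%, against 6.59% of all tested genes) and none higher, and 15 (16.7%, against 7.5%) separated downward within both lines. The 84 genes at a mean of 20 CPM or more had a median log2 fold change of -0.95, against -0.31 over all such genes. The list summed to 9065 to 14027 CPM in Thymic B and 18471 to 22601 CPM in B Stage I, with no overlap. ATP5MG, a subunit of the ATP synthase, had 466 to 783 CPM in Thymic B (median 581) and 943 to 1340 CPM in B Stage I (median 1180; log2 fold change -1.06 ± 0.258 SE, edgeR adjusted p = 0.0143). The ATP5MG call was lost without Thymic B replicates 4 and 5. The cytochrome oxidase subunit cox6c had 245 to 551 CPM in Thymic B (median 346) and 678 to 982 CPM in B Stage I (median 786; log2 fold change -1.21 ± 0.299 SE, edgeR adjusted p = 0.0152). The cox6c call was lost without Thymic B replicate 4 or 5 (adjusted p up to 0.0564). The count of called genes was 2 without Thymic B replicate 5 and 3 without B Stage I replicate 12.

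Of 46 proteasome genes PSMA3 and PSMD5 were lower (4.35%, against 6.59% of all tested genes), and 8 (17.4%, against 7.5%) separated downward within both lines. The 44 genes at 20 CPM or more had a median of -1.13, against -0.31 over all such genes. The list summed to 2232 to 3944 CPM in Thymic B and 4514 to 6006 CPM in B Stage I, with no overlap. PSMA3 passed only without Thymic B replicate 4 or 33 (adjusted p up to 0.0773 in the others). PSMD5 had no Thymic B count and so met the count filter through B Stage I alone. It lost its call without Thymic B replicate 4, 5, 33 or 35 or B Stage I replicate 12 or 41 (edgeR adjusted p up to 0.0603). Of 77 cytosolic ribosomal protein genes 6 were lower (7.79%, against 6.59%) and none higher, with a median of -0.16. RPLP1, an acidic stalk protein, had 4630 to 6080 CPM in Thymic B and 7630 to 9850 CPM in B Stage I with no overlap (log2 fold change -0.72 ± 0.152 SE, edgeR adjusted p = 0.00418). With median-ratio size factors, which shifted the median of all genes by 0.18 on the log2 scale, the median of this list was 0.03 and 2 genes were lower. DESeq2 called none of the 77, and 1 to 4 were lower in the fits without 1 library. Among 61 genes of the secretory pathway STT3A alone was lower, at least 25.9-fold (15.2-fold without B Stage I replicate 10). STT3A had no Thymic B count, so it met the count filter through B Stage I alone. Its call was lost without any 1 library (edgeR adjusted p up to 0.0897).

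Transcripts of kidney tubule were lower in Thymic B than in B Stage I. Of 40 kidney tubule genes listed in the count table, the filter on low counts passed 30, 17 of them with no Thymic B count and so through B Stage I alone. The test called 15 lower and none higher (50.0% of those tested, against 6.59%), given as a description because members can pass the filter through B Stage I alone. All 40 genes summed to 46.9 to 297 CPM in Thymic B. In B Stage I they summed to 677 to 1149 CPM in replicates 10, 11, 12 and 39, 2629 CPM in replicate 40 and 4171 CPM in replicate 41. fxyd2, a regulatory subunit of the sodium pump of renal tubules, had no count in Thymic B and 100, 171, 239, 58.9, 321 and 406 CPM in B Stage I, which is at least 637-fold lower (adjusted p = 7.9e-10, edgeR). The organic cation transporter SLC22A2, the amino acid transport partner cltrn, the folate enzyme FTCD, the phosphate transporter SLC20A1 (ENSDARG00000020114) and the endocytic adaptor dab2 also had no Thymic B count and were at least 402-fold, 353-fold, 385-fold, 223-fold and 224-fold lower. Taken at the median B Stage I library in place of the mean, these bounds were 149-fold, 227-fold, 162-fold, 167-fold and 131-fold. Of these genes, cltrn and FTCD are not on the kidney tubule list and were named by p. Without B Stage I replicates 40 and 41, 6 kidney tubule genes passed.

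Markers of other blood cells were read from lists of few tested genes. Of 9 tested erythroid genes, from 18 in the table, hemgn and SLC4A1 were lower (22.2%, against 6.59%). hemgn had no Thymic B count, so it passed the filter through B Stage I alone, and was at least 28.9-fold lower. SLC4A1, the anion exchanger of red cells, had a pooled count ratio of B Stage I to Thymic B of 321 with an interval of 110 to 1560. Both calls failed in most fits without 1 library. The hemgn call remained without B Stage I replicate 10 or 39 or Thymic B replicate 34, and the SLC4A1 call without Thymic B replicate 6 (adjusted p up to 0.0696 and 0.0753 in the others). The erythroid list, led by hbaa1 and EPB41, summed to 240 to 782 CPM in Thymic B and 675 to 3404 CPM in B Stage I. Among 23 granulocyte and macrophage genes 6 were lower (26.1%, against 6.59%) and 1 higher (4.35%, against 0.797%). The lower share is a description, since 7 of the 23 had no Thymic B count and passed the filter through B Stage I alone. Of the 8 genes with a mean of at least 20 CPM, 1 was lower and 1 higher, with a median log2 fold change of 0.36. Over all 4287 genes at that level 164 were lower and 62 higher, with a median of -0.31. The lysozyme gene lyz had 0, 0, 0, 0.329, 15.4 and 0.69 CPM in Thymic B and 80.2, 101, 29.7, 189, 522 and 99.9 CPM in B Stage I (log2 fold change -7.73 ± 1.41 SE, edgeR adjusted p = 0.00254). The lyz call was lost without Thymic B replicates 4 and 5. The proteoglycan gene srgn was higher, at 148 to 823 CPM in Thymic B and 32.4 to 195 CPM in B Stage I (log2 fold change 2.04 ± 0.452 SE, edgeR adjusted p = 0.00646). The number of these genes that were lower was 1 to 4 in the fits without 1 library. That list summed to 718 to 2285 CPM in Thymic B and 936 to 2347 CPM in B Stage I, overlapping. Of 11 thrombocyte genes 5 were tested and rgs18 alone passed. That list summed to 346 to 1062 CPM in Thymic B and 175 to 304 CPM in B Stage I, with no overlap, most of it rgs18, while itga2b, gp9 and tubb1 had no count in Thymic B and at most 14.1 CPM in B Stage I. The part of thrombocyte transcripts in the value of rgs18 was not tested.

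Among 18 genes of thymic stroma and epithelium the epithelial genes krt18a.1 and epcam were lower in Thymic B, both without a Thymic B count, at least 84.2-fold and 54.1-fold by the mean and 27.8-fold and 22.5-fold by the median B Stage I library. Of all tested genes 6.59% were lower, and krt18a.1 and epcam passed the count filter through B Stage I alone. The epcam call was lost without Thymic B replicate 4, 5, 33 or 35 or B Stage I replicate 12 or 41 (adjusted p up to 0.0638). Stromal genes summed to 2169 to 2996 CPM in Thymic B and 1560 to 2794 CPM in B Stage I. The parts of kidney, myeloid and erythroid transcripts in the lower calls of Thymic B were not tested. The refit without B Stage I replicates 40 and 41 is no such test. Replicates 10, 11, 12 and 39 still held 677 to 1149 CPM of kidney tubule transcripts, and fewer libraries entered. In that refit lower calls fell from 686 to 138. The genes cd74a, TAGAP, PCNA, tubb2b, hmga1a, HMGB2 and hmgn1b kept their calls in it. Calls of krt18a.1, epcam, hemgn, xrcc4, SOCS3 and cox6c, among others, were lost.

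The difference between Thymic B and B Stage I itself differed between the lines for 8 genes (0.0768% of those tested), by a test of the line by population term at an edgeR adjusted p under 0.05. ENY2, a subunit of a transcription and RNA export complex, had no count in Thymic B of the cd79b line and 58.3, 99.6 and 142 CPM in Thymic B of the cd79a line, with 68.1 to 207 CPM in B Stage I of both lines (edgeR adjusted p = 3.27e-05). The clone-named gene si:dkey-108k21.23 showed the opposite arrangement, with 62.4, 96.4 and 40.9 CPM in Thymic B of the cd79b line, none in Thymic B of the cd79a line and 74.1 to 710 CPM in B Stage I (edgeR adjusted p = 3.27e-05). selenop, a secreted selenium carrier, had 0, 0 and 0.23 CPM in Thymic B of the cd79b line, 33.4, 21.6 and 37.6 CPM in Thymic B of the cd79a line and 164 to 1250 CPM in B Stage I (edgeR adjusted p = 0.00134). NCAPD2, a condensin subunit, had no count in Thymic B of the cd79b line, 34, 79.6 and 27.5 CPM in Thymic B of the cd79a line and 70.4 to 174 CPM in B Stage I (edgeR adjusted p = 0.0085). The NCAPD2 call was lost without Thymic B replicate 34 or B Stage I replicate 40 or 41. The lines carry different transgenes and separate blocks of sample numbers, so the effects of the line and of sample handling cannot be told apart. Thymic B libraries had 3803, 5156 and 5941 detected genes in the cd79b line and 5884, 6680 and 6739 in the cd79a line. What this contributes to the absent counts above was not tested.

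Levels in the other B cell populations are given as a description; they share the Thymic B and B Stage I libraries used above, and no test was made. cd74a averaged 7544 ± 4100 CPM in Thymic B of the lck reporter lines (SD, n = 5), 2231 CPM in Early B-committed cells (n = 3), 5063 ± 1532 CPM in B Stage II (n = 6) and 5007 ± 343 CPM in B Stage III (n = 3), beside 8883 ± 2005 CPM in Thymic B of the rag2 lines. PCNA averaged 160 ± 71.8 CPM in Thymic B of the lck lines, 593 CPM in Early B-committed cells, 851 ± 196 CPM in B Stage I, 99.0 ± 50.1 CPM in B Stage II and 49.0 CPM in B Stage III, beside 126 ± 76.5 CPM in Thymic B of the rag2 lines. For HMGB2 the means were 279 CPM in Thymic B of the lck lines, 684 CPM in Early B-committed cells, 1164 CPM in B Stage I, 255 CPM in B Stage II and 141 CPM in B Stage III, beside 255 CPM in Thymic B of the rag2 lines. For PCNA and HMGB2 Thymic B had means close to those of B Stage II, and B Stage I had the highest mean of the 6 B cell populations. The genes hmgn1b and tuba8l4 were arranged likewise. They averaged 571.5 and 961 CPM in Thymic B of the rag2 lines and 567.5 and 826 CPM in B Stage II. In B Stage I they averaged 2459 and 3063 CPM. Some other lower genes differed. tubb2b averaged 356 CPM in Thymic B of the rag2 lines, 666 CPM in B Stage II and 374 CPM in B Stage III. hmga1a, krcp and ESCO2 had their highest means in Early B-committed cells (3039, 101 and 89.5 CPM), above B Stage I (2498, 95.8 and 86.9 CPM).

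RUNX3, KLF12 and csf2rb had another order. RUNX3 averaged 190 ± 94.9 CPM in Thymic B of the lck lines and at most 13.3 CPM in the 4 marrow B populations, against 1245 ± 281 CPM in T Stage I and 982 ± 254 CPM in T Stage II. KLF12 averaged 91.7 CPM in Thymic B of the lck lines and at most 7.0 CPM in the marrow B populations. csf2rb averaged 145 ± 19.5 CPM in Thymic B of the lck lines and at most 69.7 CPM in the marrow B populations. TAGAP, SESN1 and rgs18 averaged 282, 587 and 247 CPM in Thymic B of the lck lines, beside 856, 1413 and 590 CPM in Thymic B of the rag2 lines. They averaged 122, 321 and 237 CPM in B Stage I and 297, 801 and 289 CPM in B Stage III. In Thymic B of the lck lines these genes were therefore not above B Stage III. mbpa averaged 15.8 ± 9.67 CPM in Thymic B of the lck lines, beside 272 ± 164 CPM in Thymic B of the rag2 lines. For fxyd2 the mean was 323 CPM in B Stage III and 57.1 CPM in B Stage II, beside 216 CPM in B Stage I and 0 in Thymic B of the rag2 lines.

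**Figure D5:**
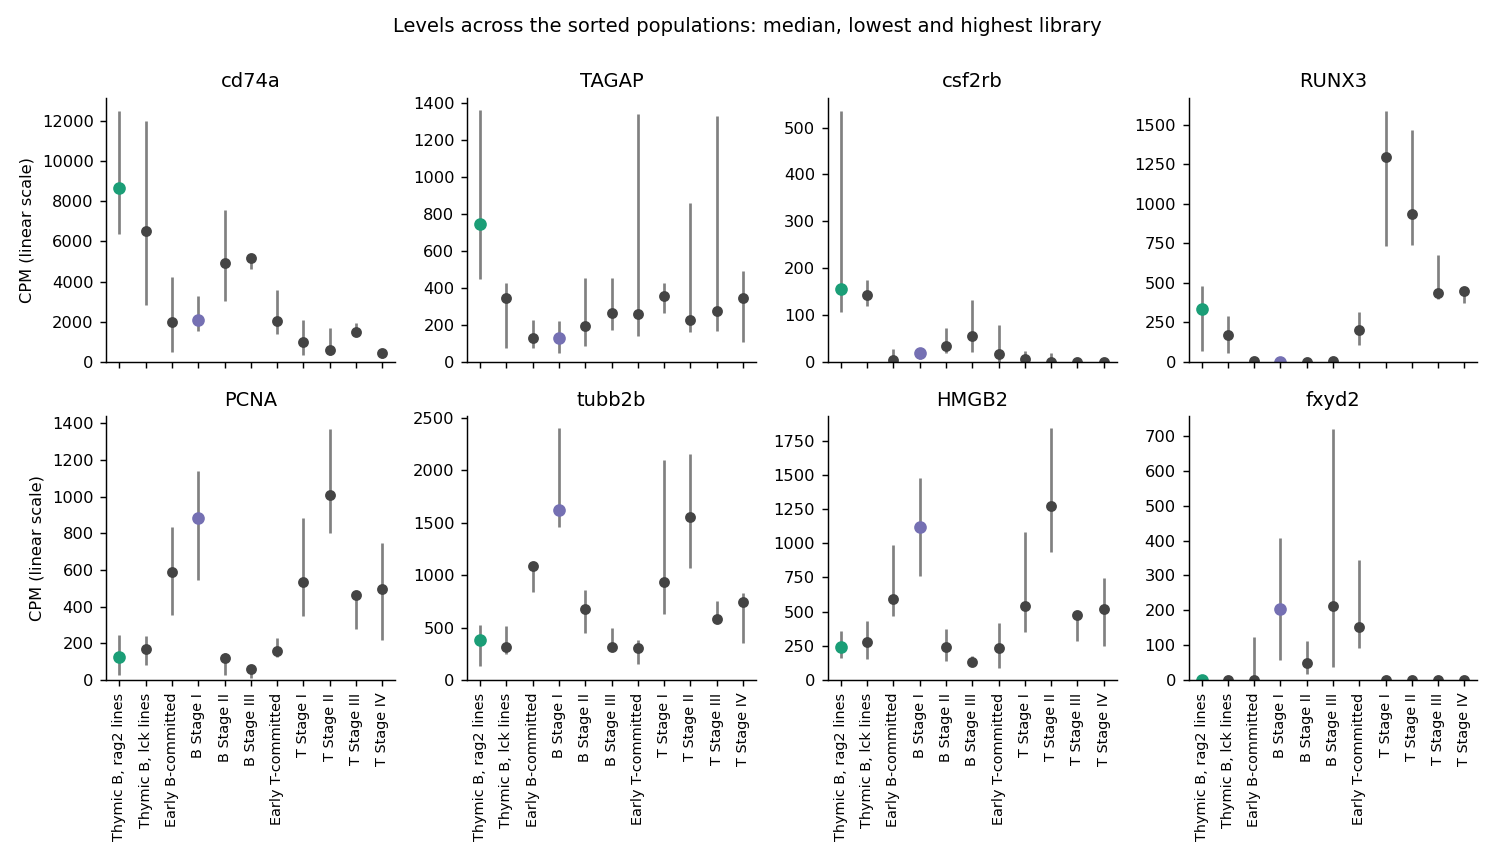
Level of 8 genes in 11 sorted populations, in CPM on linear axes from 0, as the median library (point) with the lowest and highest library (line). Thymic B of the rag2 lines is green, B Stage I is violet and the other populations are grey. RUNX3 is highest in T Stage I, and PCNA has its highest B cell values in B Stage I.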

How the data were processed

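RNA from FACS-sorted zebrafish thymus and marrow cells was sequenced with QuantSeq 3′ mRNA-Seq FWD libraries, per the labels' protocols. The deposited values are whole-number counts per gene in 1 table of 53 libraries and 14424 rows; the normalized tables of the same libraries were not used. FastQC 0.11.8, STAR, featureCounts, DESeq2 1.38.3 and the genome build GRCz11 are named in the submitters' processing notes; the annotation release, the strand setting and any filter on rows are not given in the sources used here. Reads of overlapping, antisense or near-identical genes can therefore be shared or split. Symbols come from a reference gene table, which matched 13909 rows; symbols carried by several genes are printed with the gene ID.

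Libraries were grouped by their labels. Genes with at least 10 counts in at least 3 of the 12 libraries entered an edgeR model (version 4.0.16, under R 4.3.3, with TMM scaling, quasi-likelihood test, line and population as terms; a second fit added their interaction), with Benjamini-Hochberg adjusted p under 0.05 as the threshold. CPM are counts per 1000000 of a library's total, without TMM. The SE of a log2 fold change is its absolute value over the square root of the F statistic of the quasi-likelihood test. It is approximate, and least reliable for genes near 0 in a population. For a gene with no Thymic B count, the lower bound of the fold is the mean B Stage I CPM over the mean 3-count floor of the 6 Thymic B libraries, 0.339 CPM; fitted fold changes of such genes depend on the prior count. With 1 to 3 counts the ratio of pooled counts is given with its exact binomial 95% interval. Totals per library set the precision of single values, and the spread between replicates exceeded it.

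Genes were named by rule: up to 12 in each direction with the smallest p, 20 CPM or more as the mean of the higher population and complete separation within both lines, clone names left out; the reporter genes, RUNX3 and mbpa; up to 4 called members of each list in each direction; and up to 4 genes of the interaction. The other 4 genes that passed the interaction test fall outside the rule, and were added to the closing section after their values were seen because they passed. Some genes that met the rule are not reported here. List symbols were matched without regard to case, and zebrafish a and b suffixes were dropped to match symbols in capitals. The populations and lists were chosen with earlier results of these data known. Alternatives were DESeq2 1.42.0, median-ratio size factors, no filter, all 53 libraries, no line term, each line alone, each library left out, and, chosen after seeing the data, thinning to equal totals, a 20 CPM minimum and leaving out B Stage I replicates 40 and 41 or Thymic B replicates 4 and 5, and bounds from the median B Stage I library or without the highest one. The edgeR fit without the interaction was tested on simulated data, with changes planted only in genes whose mean count was well above the floor. The interaction fit was not tested in this way, and genes with no Thymic B count were not its setting.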

Additional observations from a re-analysis of the deposited data

Results flagged for a closer look

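For 8 genes the test of the line by population term passed an edgeR adjusted p of 0.05, so their difference between Thymic B and B Stage I differed between the cd79b and the cd79a line. Of the 10416 genes, 1548 had an unadjusted p under 0.05. Interaction calls numbered 30, 31, 120 and 35 when Thymic B replicate 4, 5, 6 or 33 was left out, 3 without Thymic B replicate 34, and 4 without Thymic B replicate 35 or B Stage I replicate 40 or 41. Values are the log2 fold change in the cd79b line minus that in the cd79a line; sizes for genes with no count in Thymic B of a line depend on the prior count and are no bound. si:dkey-108k21.23 had 9.69 (adjusted p = 3.27e-05), ENY2 -14 (3.27e-05), selenop -7.59 (0.00134) and NCAPD2 -12.6 (0.0085).

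b2m, the invariant light chain of MHC class I, had -1.94 (edgeR adjusted p = 0.00947). It had 2510, 3080 and 3720 CPM in Thymic B and 2700, 2030 and 2130 CPM in B Stage I of the cd79b line, which overlap. In the cd79a line it had 5130, 4630 and 5490 CPM in Thymic B and 1140, 1310 and 1060 CPM in B Stage I. The log2 fold change was 0.23 in the cd79b line and 2.17 in the cd79a line, and the interaction call was lost without Thymic B replicate 34 or 35 (adjusted p up to 0.101). ENSDARG00000089547, which has no symbol in the table, had -2.2 (adjusted p = 0.0268), with 1090, 1510 and 1160 CPM in Thymic B and 1050, 887 and 725 CPM in B Stage I of the cd79b line, and 2590, 2000 and 2000 CPM in Thymic B and 434, 427 and 335 CPM in B Stage I of the cd79a line. Its call was lost without B Stage I replicate 10, 11, 40 or 41 or Thymic B replicate 34 or 35.

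AP2M1 (ENSDARG00000002790), an adaptor of clathrin-coated pits, had -12.3 (edgeR adjusted p = 0.0408), with no count in Thymic B of the cd79b line, 40.7, 59.6 and 59.7 CPM in Thymic B of the cd79a line and 58.1 to 89.3 CPM in B Stage I. Its call was lost without Thymic B replicate 34 or 35, without any 1 of the 6 B Stage I libraries and with median-ratio size factors. EGR3, an immediate early transcription factor, had 5.55 (adjusted p = 0.046), with 1120, 174 and 259 CPM in Thymic B and 6.74, 22.8 and 8.61 CPM in B Stage I of the cd79b line, and 208, 25 and 60.6 CPM in Thymic B and 66.9, 162 and 174 CPM in B Stage I of the cd79a line. Its call was lost without Thymic B replicate 4, 34 or 35 or B Stage I replicate 10, 12, 40 or 41.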

How the results depend on the processing

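The 769 calls, 83 higher and 686 lower in Thymic B, became 1654 (240 and 1414) with DESeq2, 645 (112 and 533) with no filter on low counts, 1605 (111 and 1494) without the line term, 1362 (102 and 1260) after thinning, 155 (60 and 95) at 20 CPM or more, 60 (13 and 47) in the cd79b line alone, 69 (22 and 47) in the cd79a line alone, 179 (41 and 138) without B Stage I replicates 40 and 41, and 229 (50 and 179) without Thymic B replicates 4 and 5. Median-ratio scaling gave 100 and 488, and all 53 libraries 100 and 915. Leaving out each library gave 247 to 528 calls, 43 to 64 higher and 200 to 485 lower. The 8 interaction calls were 1377 with DESeq2 and 79 with no filter, and 3 to 120 without 1 library. The cd79b log2 fold change, which did not pass, changed sign to 0.718 in the cd79a line alone and 0.0191 without Thymic B replicates 4 and 5, and ranged from -0.838 to 0.158 when each library was left out. No other named gene changed direction. Over all alternatives 1131 values of named genes kept their side of the threshold, 368 fell below it and 1 rose past it; the causes were not tested. The low number of detected genes in Thymic B limits what can be said of genes near the floor there. No paired analysis was possible because the replicate numbers run through the series and no number is shared between the groups compared.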
